A study of Mus musculus with 6 samples.

Results

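Ints6l, a paralogue of the Integrator subunit gene Ints6, and 9 further genes of the Integrator and SOSS complexes were followed in cultured mouse B cells given a FOXO1 inhibitor. The 10 genes were picked by symbol out of 54838 identifiers in the count table, and all 10 passed the filter on low counts that left 15136 genes. Ints6l was chosen from its large difference between the groups in this same comparison, and the other 9 by name with results of that comparison known. The fold changes of all 10 are therefore given as a description, with no test of their own.

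Naive B cells from spleens of male mice, 3 months of age and 9 days after immunization with SRBC (sheep red blood cells), were sorted by flow cytometry. Cells of 10 mice from 2 experiments were combined before culture, so no library stands for 1 animal, and the labels do not say what the replicate letters A, B and C stand for. For 5 days all cultures held anti-CD40 antibody at 5 µg/ml and mIL4, mouse interleukin 4, at 80 ng/ml. The 3 DMSO libraries come from cultures given the solvent, and the 3 Cpd10 libraries from cultures given 1 µM of Cpd10, described in the labels as a Foxo1 inhibitor, over the final 48 h. No strain is named. A p-value here reflects no more than how these libraries vary, and that variation may be technical. Where a gene's 3 values of a group are given, they are in the order A, B, C.

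Integrator is a large complex that binds RNA polymerase II and cuts nascent RNA. It was first known for forming the 3′ ends of small nuclear RNAs (snRNAs) and also ends transcription early at many protein-coding genes, where it carries the phosphatase PP2A to the paused polymerase. INTS1, INTS2 and INTS7 are part of its backbone, INTS8 helps hold PP2A, INTS11 is the RNA-cutting subunit with INTS9 and INTS4 beside it, and INTS10, INTS13 and INTS14 form an auxiliary module. INTS6 works with the PP2A module. INTS3 and INTS6 also occur in SOSS, a complex at DNA breaks, together with the single-stranded DNA-binding proteins NABP1 and NABP2 and the small protein INIP. INTS6L can take the place of INTS6 in SOSS.

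The upstream sequences of Ints6l and Ints6 are shown because the genes are paralogues whose upstream sequences differ in base composition. They are RefSeq sequences of build GRCm38.p6, read 5′ to 3′ on the strand of the gene. Each ends before the first annotated base of the gene. Capitals mark CCAAT on either strand (its reverse complement reads ATTGG), the core of a common promoter element, which was picked for display after the sequences had been read.
Ints6l, chrX:56454589-56454838, plus strand: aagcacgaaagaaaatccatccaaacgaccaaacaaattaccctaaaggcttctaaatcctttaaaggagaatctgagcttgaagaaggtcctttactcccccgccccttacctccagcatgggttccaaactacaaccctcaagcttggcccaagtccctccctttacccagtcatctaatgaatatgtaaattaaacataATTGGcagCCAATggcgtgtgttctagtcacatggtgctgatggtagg
Ints6, chr14:62761170-62761362, minus strand: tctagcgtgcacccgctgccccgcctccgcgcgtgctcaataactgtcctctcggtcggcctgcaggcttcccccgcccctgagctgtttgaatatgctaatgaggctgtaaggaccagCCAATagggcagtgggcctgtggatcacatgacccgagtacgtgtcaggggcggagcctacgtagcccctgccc

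The window of Ints6l, from 250 bases before to 50 after its RefSeq start, held 4 CpG dinucleotides and 46.3% G and C. That of Ints6 held 19 CpG and 60.0% G and C, beside medians of 7 CpG and 52.7% over all 32851 windows of this length. A window of Nabp2 was close to that of Ints6l, with 5 CpG and 47.3% G and C. The log2 fold change of Nabp2 was 0.12 (SE 0.14). The window of Ints6l had 2 matches of CCAAT, read on the other strand as ATTGG, and that of Ints6 had 1. The window of Ints3 had 2 and another window of Nabp2 had 3. Of all windows, 37.4% contained at least 1. Whether these features bear on the levels of the genes was not tested. The FOXO-type motif GTAAACA, its variant ATAAACA and the related motif CAAAACA, searched on both strands, were in none of the 10 windows found for 8 members (no entry matched Ints8 or Ints10), and 13.5% of all windows had at least 1 of them. No match says only that these letters are not in these windows.

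The coding sequences of the paralogues are 2583 bases (Ints6l) and 2649 bases (Ints6) long. Over 2507 aligned bases, 70.6% were identical. The longest run that both coding sequences share is printed to show how short it is, 20 bases from coding position 478 in each, written here in lower case throughout.
Shared run: gaaccttttcgttgggatca
None of the 7412 different 50-base words in the annotated Ints6l transcripts occurs in a transcript of any other gene, on either strand. Reads of that length from Ints6l thus have no second exact match among annotated transcripts. Ints6l (chromosome X, 56454857 to 56507843, plus strand, ENSMUSG00000035967) overlaps no other gene of the annotation. Ints6 (chromosome 14, 62676330 to 62761169, minus strand, ENSMUSG00000035161) overlaps the protein-coding gene Serpine3 on the opposite strand and shares 1.27% of its 50-base words with it. Of the other members, Ints8 (7.10%, mostly with Ccne2), Ints2 (4.79%, with the antisense gene Brip1os among others) and Nabp2 (3.91%, with Ankrd52) shared the most. No source used here gives the strand setting of the counting. That setting bears on genes that overlap on the opposite strand, such as Ccne2, Brip1os and Ankrd52, and not on genes elsewhere. These are shares of different words and not of reads, so how much of the counts is uncertain is not known.

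Libraries held 36873204 to 44859930 counts. Levels are given as CPM, counts scaled to library size after TMM normalization. The libraries fell into 2 sets that cross the treatment, set 1 with Cpd10 A and DMSO A and C, and set 2 with DMSO B and Cpd10 B and C, and the leading principal component (46.3% of the variance) separated these sets. Member values are therefore also given from a fit with the set as a term, and within each set. Means under DMSO and Cpd10 for 5 B cell markers, all with overlapping groups, were 738 ± 87.9 and 734 ± 121 CPM for Cd79a, 909 ± 30.2 and 1040 ± 221 CPM for Cd79b, 590 ± 90.6 and 530 ± 92.9 CPM for Cd22, and 530 ± 69.0 and 473 ± 52.0 CPM for Pax5 (SD, n = 3 each). The difference was largest for the fifth, Ms4a1, which encodes CD20, at 461 ± 160 and 294 ± 21.2 CPM (log2 fold change -0.65, SE 0.26, edgeR adjusted p = 0.560). Ms4a1 values separated by library set. DMSO A and C were at 551 and 556 CPM, DMSO B at 277 CPM, and Cpd10 A, B and C at 318, 279 and 284 CPM. Within set 1 the difference in mean log2 CPM was -0.80, and within set 2 it was 0.026. The 5 T cell markers summed to at most 0.735 CPM, the 3 NK cell markers to 0.243 CPM (Ncr1 at 0) and the 3 neutrophil markers to 0.0487 CPM (S100a8 and S100a9 at 0) in any library. The 5 macrophage and monocyte markers summed to 13.9 to 21.7 CPM under DMSO and 8.81 to 14.5 CPM under Cpd10, nearly all Adgre1. For Adgre1 the fitted log2 difference was -0.63 (edgeR adjusted p = 0.529). With the set as a term it was -0.80 (edgeR adjusted p = 0.0252, a call). The 3 plasma cell markers summed to 806, 448 and 2219 CPM in DMSO A, B and C. In Cpd10 A, B and C they summed to 805, 290 and 252 CPM. All 3 separated by library set and were higher in set 1. With the set as a term their log2 differences were -0.67 (Sdc1), -0.84 (Jchain) and -0.61 (Prdm1), and edgeR called 0. The part of the macrophage and plasma cell markers in the results below was not tested. In bulk RNA, fewer cells of a type and less RNA per cell cannot be told apart. Foxo1 itself was at 138 ± 16.5 CPM under DMSO and 118 ± 10.0 CPM under Cpd10 (mean ± SD, n = 3 each); an inhibitor of the protein need not change its transcript, so this checks no label.

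Ints6l was the only one of the 10 members whose libraries separated by treatment. It was at 60.8, 50.4 and 66.6 CPM under DMSO, and at 307, 259 and 271 CPM under Cpd10. Every Cpd10 library lay far above every DMSO library, and the lowest Cpd10 value was in the set whose DMSO library was also the lowest. The means were 59.2 ± 8.19 and 279 ± 25.2 CPM (SD, n = 3 each), a ratio of 4.71, and the fitted log2 fold change of Cpd10 against DMSO was 2.23 (SE 0.13). It was 2.33 (SE 0.085) with the library set as a term. Between libraries of set 1 alone the difference in mean log2 CPM was 2.27, and within set 2 it was 2.39, so it was as large within each set as across both.

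Ints6l was 1 of 56 genes called by edgeR's quasi-likelihood test at an adjusted p under 0.05, 0.370% of all genes tested, and none of the other 9 members was called. Nothing is read from that count, since the comparison chose the members. Groups that do not overlap were found for the same 1 of 10 members, beside 14.6% of all genes tested. With the library set as a term, edgeR again called Ints6l and none of the other 9, beside 3.96% of all genes, and DESeq2 did likewise beside 2.52%. The number of calls turned on single libraries: edgeR called 0 genes without Cpd10 C (843 at an unadjusted p under 0.05), 1 without Cpd10 B, 1 without DMSO C, 5 without DMSO A and 100 without DMSO B, and Ints6l itself was not called without Cpd10 C, although its log2 fold change stayed between 2.13 and 2.33. Of 8883 tested genes at 10 CPM or more on average, 14 (Ints6l included) had a log2 fold change of at least this size in either direction.

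**Figure D1:**
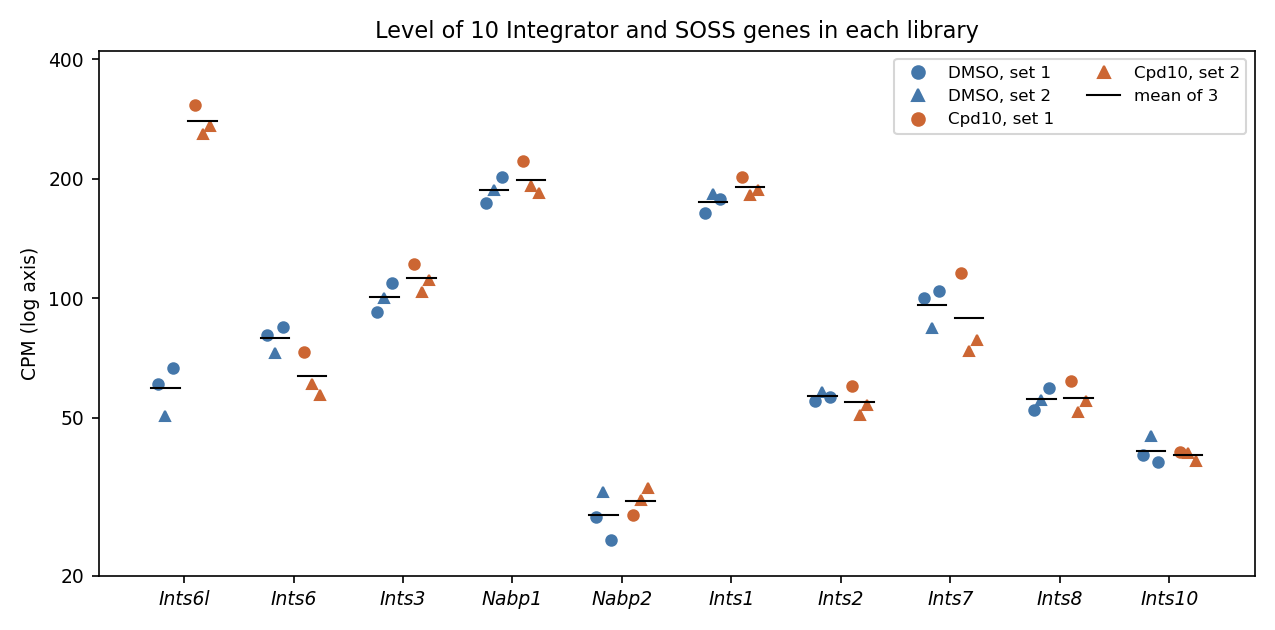
Level of each member in each of the 6 libraries, as CPM on a log axis; circles are libraries of set 1, triangles of set 2, blue DMSO and orange Cpd10, and black lines are means of 3. Ints6l moves from 50.4 to 66.6 CPM under DMSO to 259 to 307 CPM under Cpd10, while the DMSO and Cpd10 points of the other 9 genes overlap.

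Ints6, the paralogue, was the member with the next largest difference, and it was in the opposite direction. Its values were 80.6, 72.9 and 84.4 CPM under DMSO, and 73.2, 60.7 and 57.0 CPM under Cpd10. The groups touched: Cpd10 A was slightly above DMSO B, although the Cpd10 libraries were the lower ones within each set. The log2 fold change was -0.32 (SE 0.12), and -0.24 (SE 0.086) with the set as a term. Ints6 was called in neither fit (edgeR adjusted p = 0.533 and 0.164). Within set 1 the difference in mean log2 CPM was -0.17 and within set 2 it was -0.31. Ints6 was also lower in set 2 (63.5 ± 8.37 CPM) than in set 1 (79.4 ± 5.73 CPM, SD, n = 3 each), and every library of set 2 lay below every library of set 1.

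Levels of different genes can be compared only per length, here as CPM per kilobase of merged exons. On that scale Ints6l was at 8.47, 7.03 and 9.28 and Ints6 at 4.80, 4.34 and 5.02 under DMSO. Under Cpd10, Ints6l was at 42.8, 36.0 and 37.8 and Ints6 at 4.35, 3.61 and 3.39. The 2 genes together stood at 11.4 to 14.3 CPM per kb under DMSO and at 39.7 to 47.2 CPM per kb under Cpd10, and Ints6 was not higher under Cpd10. Ints6l made up 63.9%, 61.8% and 64.9% of the pair under DMSO, and 90.8%, 90.9% and 91.8% under Cpd10. The ratio of Ints6l to Ints6 was 1.74 ± 0.116 under DMSO and 10.3 ± 0.715 under Cpd10 (SD, n = 3 each). The size of the share depended on the length used, since the merged exons of Ints6 span 16805 bases and its longest transcript 10883. With the longest transcript it was 53.0 ± 1.67% under DMSO and 87.0 ± 0.761% under Cpd10, and with coding length, a choice made after seeing the data, 43.3 ± 1.64% and 81.8 ± 1.00%. The coding-length shares divide counts of the whole gene, untranslated parts included, by coding bases alone. They therefore do not show which of the 2 was the more abundant under DMSO. By the longest transcript, the ratio of Ints6l to Ints6 under DMSO was 1.13 ± 0.0749 (SD, n = 3). By every length Ints6l had the larger share under Cpd10.

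**Figure D2:**
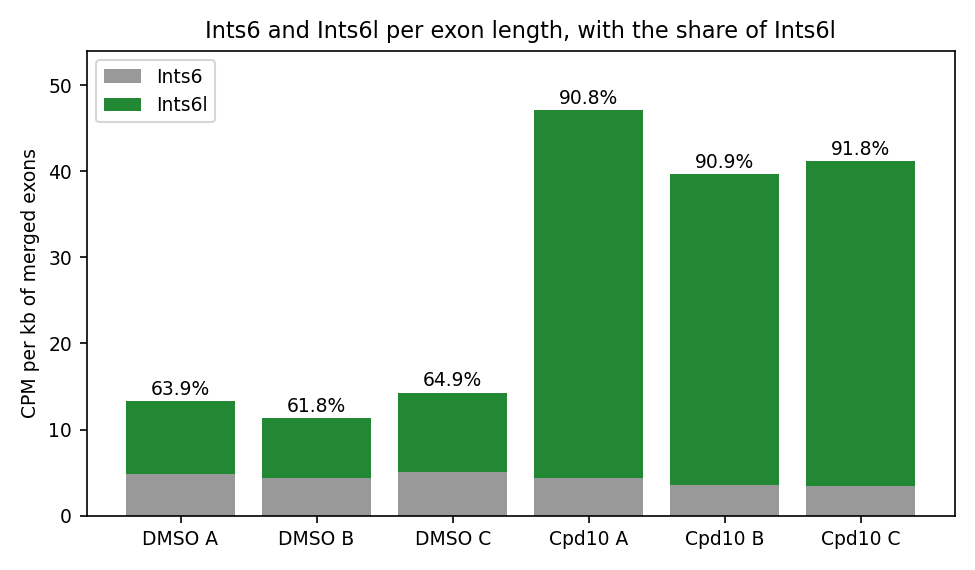
Ints6 (grey) and Ints6l (green) in each library as stacked bars, in CPM per kb of merged exons, with the share of Ints6l in the pair above each bar. The share was 61.8% to 64.9% under DMSO and 90.8% to 91.8% under Cpd10, and the grey part was 3.39 to 5.02 CPM per kb in all 6 libraries.

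The other SOSS genes did not follow Ints6l. Ints3 (chromosome 3, 90391388 to 90433622, minus strand), whose product is the scaffold of SOSS, was at 92.4, 100.2 and 109.5 CPM under DMSO and at 122, 104 and 111 CPM under Cpd10. Its groups overlapped, with a log2 fold change of 0.16 (SE 0.11). Nabp1 (chromosome 1, 51465862 to 51478425, minus strand), which encodes one of the 2 alternative DNA-binding subunits, was at 173, 187 and 202 CPM under DMSO and at 221, 192 and 184 CPM under Cpd10, for a log2 fold change of 0.084 (SE 0.11). Nabp2 (chromosome 10, 128401395 to 128411492, minus strand), which encodes the other, was at 28.1, 32.5 and 24.6 CPM under DMSO and at 28.5, 30.9 and 33.2 CPM under Cpd10 (0.12, SE 0.14). Nabp2 values were ordered by library set, 27.0 ± 2.13 CPM in set 1 and 32.2 ± 1.15 CPM in set 2, with no overlap between the sets. With the set as a term the log2 fold changes of Ints3, Nabp1 and Nabp2 were 0.18, 0.12 and 0.046.

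The backbone genes differed little between the groups. Ints1 (chromosome 5, 139751282 to 139775674, minus strand) was at 164, 184 and 178 CPM under DMSO and at 202, 182 and 187 CPM under Cpd10, overlapping groups with a log2 fold change of 0.12 (SE 0.093). Ints2 (chromosome 11, 86210681 to 86257575, minus strand) was at 55.0, 58.2 and 56.4 CPM under DMSO and at 60.2, 50.8 and 53.7 CPM under Cpd10 (-0.043, SE 0.10). Ints7 (chromosome 1, 191575636 to 191623688, plus strand) was at 99.99, 84.3 and 104 CPM under DMSO and at 116, 73.4 and 78.3 CPM under Cpd10. Its spread followed the sets: 107 ± 8.14 CPM in set 1 and 78.7 ± 5.46 CPM in set 2, without overlap. Its log2 fold change by treatment was -0.11 (SE 0.18) and 0.015 (SE 0.092) with the set as a term, and without Cpd10 A it was -0.33.

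Ints8 (chromosome 4, 11199158 to 11254258, minus strand), of the PP2A module, was at 52.3, 55.4 and 59.5 CPM under DMSO and at 62.0, 51.5 and 55.0 CPM under Cpd10, a log2 fold change of 0.012 (SE 0.11). Ints10 (chromosome 8, 68793929 to 68831667, plus strand), of the auxiliary module, was at 40.2, 44.9 and 38.7 CPM under DMSO and at 40.9, 40.7 and 38.9 CPM under Cpd10 (-0.038, SE 0.10). For both genes the groups overlapped, and every Ints10 value under Cpd10 lay within the range under DMSO. Across the 9 members other than Ints6l, log2 fold changes ran from -0.32 to 0.16 with a median of 0.012, beside a median of -0.0012 over all genes tested. Their SE ran from 0.093 to 0.18, so small differences are not resolved with 3 libraries a group. Library sets did not overlap for 3 of the 10 members (Ints6, Nabp2 and Ints7), beside 35.9% of all genes tested.

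Per kilobase of merged exons, the order of the members under DMSO was Nabp1 (22.1 ± 1.70), Ints1 (18.9 ± 1.08), Ints3 (17.7 ± 1.5), Ints7 (13.1 ± 1.44), Nabp2 (11.3 ± 1.58), Ints6l (8.26 ± 1.14), Ints8 (7.46 ± 0.487), Ints10 (5.99 ± 0.467), Ints2 (5.33 ± 0.151) and Ints6 (4.72 ± 0.348 CPM per kb, SD, n = 3). The library values of Ints1 and Ints3 overlapped, as did those of Ints7 and Nabp2 and those of Ints6l and Ints8, so these neighbours in the order were not separated; the other neighbours did not overlap. Under Cpd10, Ints6l led the order at 38.9 ± 3.52 CPM per kb, ahead of Nabp1 at 23.4 ± 2.32. By the longest transcript in place of merged exons it moved from place 9 to place 2, behind Nabp1. Ints6 was last of the 10 in both groups and by both lengths.

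The Integrator and SOSS genes outside the 10 members gave no call. Of 9 listed genes, 8 were tested (the symbol Ints15 was not matched). By edgeR, DESeq2 and edgeR with the set as a term 0 were called, beside 0.370%, 2.52% and 3.96% of all genes tested. Of the 8, 1 had an unadjusted p under 0.05, beside 8.39% of all genes tested. That 1 was Ints4, of the RNA-cutting module, at 67.9, 60.5 and 72.1 CPM under DMSO and 59.7, 53.1 and 54.3 CPM under Cpd10. Its groups did not overlap, and the fitted log2 difference was -0.26 (SE 0.11), with an edgeR adjusted p = 0.565. Ints13, of the auxiliary module, had means of 57.2 ± 5.11 and 69.2 ± 8.73 CPM (0.27, SE 0.13, edgeR adjusted p = 0.645) and separated by library set. Ints11, the gene of the RNA-cutting subunit, was at 53.9 ± 2.88 and 55.9 ± 3.18 CPM, and Ints9, its partner, at 55.3 ± 0.750 and 55.4 ± 1.12 CPM. Ints5, Ints12, Ints14 and Inip had log2 fold changes of 0.070, -0.087, -0.081 and -0.13, with edgeR adjusted p from 0.825 to 0.913. The median of the 8 was -0.038.

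**Figure D3:**
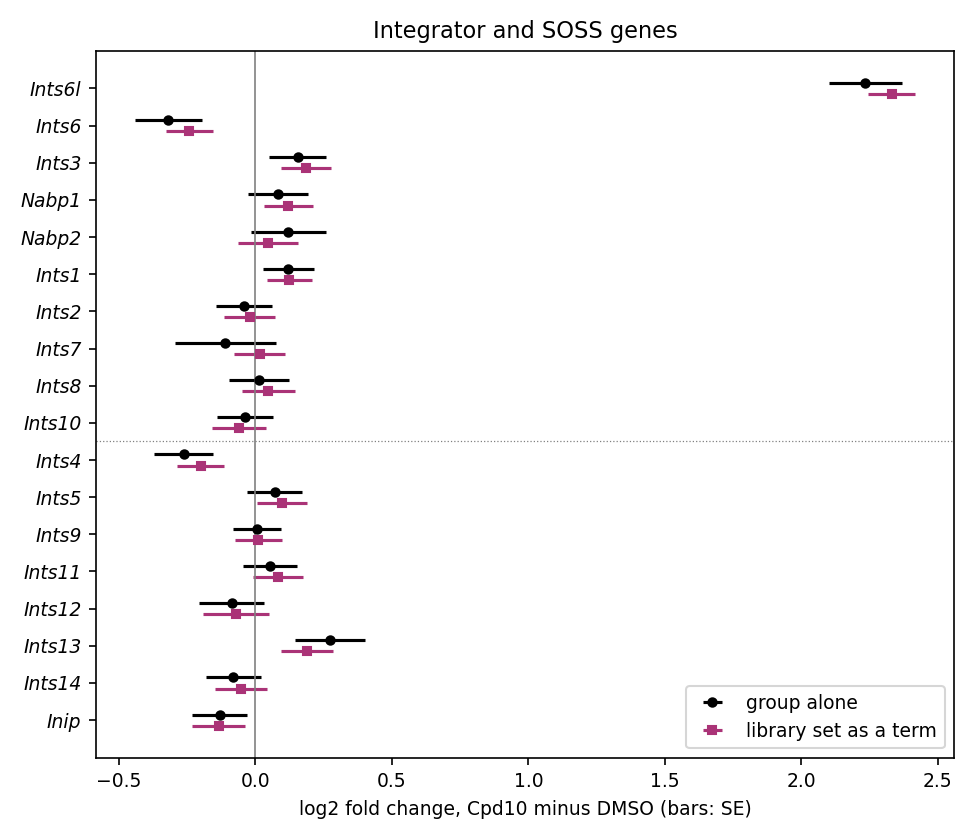
Log2 fold change of Cpd10 against DMSO for the 10 members (above the dotted line) and the 8 other tested Integrator and SOSS genes, with bars of 1 SE, from the fit with the group alone (black) and with the library set as a term (purple). Ints6l stands at 2.23 and 2.33, and all other points lie between -0.32 and 0.27.

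Genes that act with Integrator were read from 7 further lists, chosen with earlier results of these data known. In these lists edgeR and DESeq2 called 0 genes, beside 0.370% and 2.52% of all genes tested, so 0 calls say little about lists of this size. Over all 8 lists, including the remaining Integrator and SOSS genes, 72 genes were tested. Of these, 6 had an unadjusted p under 0.05, beside 8.39% of all genes tested. Groups did not overlap for 11, beside 14.6%. The PP2A enzyme genes (4 tested) had a median log2 fold change of 0.071; the scaffold subunit gene Ppp2r1a was at 199 ± 18.6 CPM under DMSO and 251 ± 8.37 CPM under Cpd10, without overlap (0.34, SE 0.10, edgeR adjusted p = 0.355). The other scaffold gene Ppp2r1b and the catalytic gene Ppp2cb had -0.065 and 0.11. Groups did not overlap for Ppp2cb either, which makes 2 of the 4 genes, beside 14.6% of all genes tested. The assembly partners Brat1 and Wdr73 had -0.086 and -0.10.

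Among 13 genes of pausing and elongation the median was 0.053 and 1 had an unadjusted p under 0.05. It was Nelfe, a subunit of the pausing factor NELF, at 61.4 ± 3.16 CPM under DMSO and 76.7 ± 7.95 CPM under Cpd10 (a fitted log2 difference of 0.32, SE 0.11, edgeR adjusted p = 0.443). Nelfcd and Nelfb, also of NELF, had 0.19 and 0.13, and the groups did not overlap for any of these 3 genes, the only such genes of the 13, beside 14.6% of all genes tested. The remaining NELF gene, Nelfa, had -0.014 (SE 0.13) and overlapping groups. The 12 subunits of RNA polymerase II had a median of 0.032 and 0 had an unadjusted p under 0.05; the smallest p belonged to Polr2f, Polr2l and Polr2g, with 0.25, 0.22 and 0.21. For 8 of the 12, values separated by library set, beside 35.9% of all genes tested.

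The 15 cleavage and polyadenylation genes, which form the ends of most messenger RNAs, had a median of 0.019, and 0 had an unadjusted p under 0.05. Cpsf3, the nuclease related to Ints11, had -0.22, Cpsf2 had -0.17 and Nudt21 had 0.18. The 7 snRNA promoter factors had a median of 0.060, and 0 had an unadjusted p under 0.05; Snapc3, Snapc1 and Zfp143 had 0.31, 0.33 and 0.19. The 11 genes for partners of SOSS in break repair had a median of 0.072, and 3 had an unadjusted p under 0.05, beside 8.39% of all genes tested. These were Mre11a (61.7 ± 1.64 and 76.3 ± 3.11 CPM, 0.31, edgeR adjusted p = 0.323) and Nbn (45.9 ± 4.50 and 36.8 ± 4.95 CPM, -0.32, edgeR adjusted p = 0.583), both of the break-sensing MRN complex, and the helicase gene Blm (58.5 ± 6.15 and 80.7 ± 19.6 CPM, 0.46, edgeR adjusted p = 0.531). With the library set as a term, Blm was the 1 gene called in these lists (0.58, SE 0.093, edgeR adjusted p = 0.00308); that term was picked from the same counts, so the call is exploratory.

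**Figure D4:**
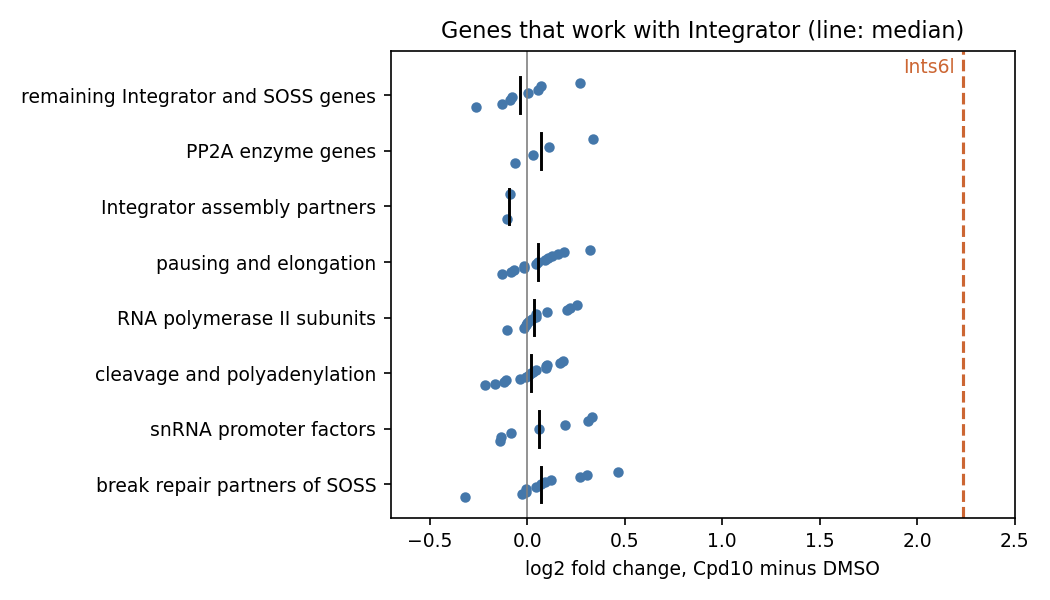
Log2 fold change of every tested gene of the 8 lists outside the members, 1 point a gene, with black lines for list medians and the dashed line at Ints6l. All 72 genes lie between -0.32 and 0.46, and Ints6l at 2.23.

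None of the tested genes near Ints6l on chromosome X had a log2 fold change as large as its own. Ints6l was chosen for a large difference that few genes reach, so smaller ones in its neighbours say nothing about the region. Of 39 annotated genes in the table within 1 Mb of either end, 8 passed the filter; edgeR called 0 of them, with or without the set as a term, DESeq2 called 0, and 1 had an unadjusted p under 0.05. Over all genes tested these shares were 0.370%, 3.96%, 2.52% and 8.39%, so few or no calls among 8 genes set them apart in no way. The nearest tested gene upstream was the zinc finger gene Zfp449, 89.2 kb away, at 0.999 ± 0.108 CPM under DMSO and 1.42 ± 0.524 CPM under Cpd10 (log2 fold change 0.51, SE 0.43). The nearest downstream was Mmgt1, which encodes a membrane magnesium transporter, at 41.7 ± 3.24 and 40.2 ± 1.97 CPM (-0.053, SE 0.11). Map7d3 had -0.43 (SE 0.37) and 3830403N18Rik 0.21 (SE 1.05), both at low counts. Farther downstream, Htatsf1 had 0.16 (SE 0.093), Rbmx -0.11 (SE 0.15) and Arhgef6 -0.28 (SE 0.11, edgeR adjusted p = 0.529). Arhgef6 was the gene with an unadjusted p under 0.05. Groups did not overlap for 2 of the 8 tested neighbours, Htatsf1 and Arhgef6, beside 14.6% of all genes tested.

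**Figure D5:**
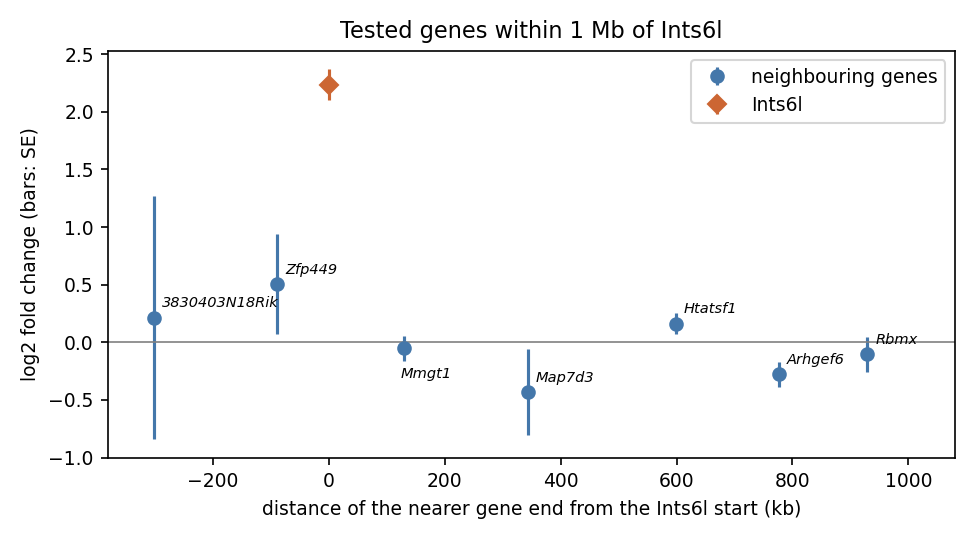
Log2 fold change (bars, 1 SE) of 7 of the 8 tested genes within 1 Mb of Ints6l against the distance of their nearer end from the start of Ints6l, in kb. The plotted neighbours lie between -0.43 and 0.51, and Ints6l at 2.23.

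Likeness to Ints6l was measured as the Pearson correlation of log2 CPM over the 6 libraries, among 8873 genes at 10 CPM or more on average, members left out. The highest values were those of Hlx, a homeobox transcription factor gene (r = 0.998), Bcl2l11, which encodes the cell-death protein BIM (0.997), Dmwd (0.996), Rubcn, a regulator of autophagy (0.992), and Peak1, a pseudokinase gene (0.991). The 6 points share their libraries and their scaling, and with 3 libraries in each group such values mostly reflect the step between groups. Bcl2l11 was at 158, 152 and 158 CPM under DMSO and at 303, 289 and 291 CPM under Cpd10, the same order of libraries as Ints6l but a smaller step (log2 fold change 0.91, SE 0.084). Rubcn was at 145, 140 and 154 CPM under DMSO and 363, 376 and 403 CPM under Cpd10 (1.38, SE 0.096). Hlx, Dmwd and Peak1 had log2 fold changes of 0.90, 0.63 and 0.26. Within the DMSO group, DMSO B was the lowest library for Ints6l and for each of these 5 genes. The correlation that picked them used the same values, so a shared order of libraries is no further evidence of likeness.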

How the data were processed

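RNA of 6 libraries was measured by poly A selected, directional RNA sequencing. The authors deposited 1 table of unnormalized gene counts; build GRCm38 (mm10), DESeq2, featureCounts 2.0.6 and STAR 2.7.10a are named in the submitters' processing notes. Of 54838 identifiers, 54809 were found in GENCODE M21, which gave symbols, GRCm38 coordinates and exon lengths. Groups and replicate letters follow the sample titles.

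Counts were fitted with edgeR 4.0.16 in R 4.3.3: TMM, filterByExpr, robust quasi-likelihood, group as the only term, Benjamini-Hochberg adjustment over all 15136 genes, SE as the fold change over the root of F. DESeq2 1.42.0 was an alternative, on the same genes. The procedure was run on simulated counts that held no library sets, so that run does not show how it behaves with them. Replicates differed well beyond sampling noise (chi-square per degree of freedom 12.1 to 176). The library sets are the division, 3 against 3, for which the most genes (9) had at least 50 counts throughout one side and at most 3 throughout the other; this term was added after seeing the data.

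Members, lists and tests were chosen with earlier results of these data known. Named genes are all members and remaining Integrator genes, up to 3 with the smallest p in each other list of genes that act with Integrator, tested neighbours within 1 Mb and the 5 most like Ints6l; Nelfa and the markers were named after their values were seen. Counting error is small for the members, and larger for 3830403N18Rik, Zfp449 and the snRNA genes, which had under 100 counts in each library. The values of 1 B cell marker and 1 neighbouring gene are not reported here.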

Additional observations from a re-analysis of the deposited data

How the results depend on the processing

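The log2 fold change of Ints6l ran from 2.13 to 2.41 over 17 alternatives (RLE size factors, no filter, DESeq2, a replicate block, the library set as a term, and leaving out each library without and with that term). Ints6l was called in 16 of them; without Cpd10 C edgeR called 0 genes (843 at an unadjusted p under 0.05; edgeR adjusted p of Ints6l 0.0522). None of the other 9 members was called in any. Of 170 member values under these alternatives, 167 moved by at most the root of the summed variances of log2 CPM in the 2 groups, and 3 by more. This limit is wide. Leaving out 1 library without the set term can hardly shift a value that far. Ints7, at -0.11 and at -0.33 without Cpd10 A, counted as unmoved. The number of called genes, 56, became 381 with DESeq2, 194 without the filter and 599 with the set as a term, and 0 to 100 when 1 library was left out (0 without Cpd10 C, 1 without Cpd10 B or DMSO C, 5 without DMSO A, 100 without DMSO B); the cause was not tested. With the set as a term, 1 break repair gene was called (Blm). Ints6l made up 63.5% of the pair in DMSO (62.8% to 64.4% leaving out a library), 53.0% by the longest transcript and 43.3% by coding length, and 91.1% in Cpd10 (90.8% to 91.3%), 87.0% and 81.8%; these follow from the lengths used. By Spearman correlation, 44 genes tied with Ints6l at the highest value, 1 of the 5 named (Bcl2l11) among them. Whether the replicate letters pair cultures is not stated. Between libraries of the same letter, deviations from group means correlated at 0.309 (A), 0.432 (B) and -0.315 (C). Every DMSO and Cpd10 pair from the same library set correlated positively, and every pair across sets negatively. These correlations therefore follow the sets and cannot show whether letters pair cultures. With a replicate block 49 genes were called and Ints6l had 2.24.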

Other observations

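Annotated snRNA genes, a class that includes RNAs whose ends Integrator forms, were looked at after other values had been seen. Of 1385 in the table, 4 passed the filter, each at 6 to 41 counts per library, and edgeR called 0, DESeq2 called 0 and 0 had an unadjusted p under 0.05. Gm23458, which had the largest difference of the 4, was at 18, 21 and 41 counts in DMSO A, B and C. It was at 12, 6 and 15 counts in Cpd10 A, B and C (log2 fold change -1.27, SE 0.66, edgeR adjusted p = 0.700). Gm22572, Gm24060 and Gm22753 had log2 fold changes of 0.044 (SE 0.61), -0.25 (SE 0.57) and -0.51 (SE 0.71). Poly A selection removes most mature snRNAs, so these counts say little about them.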
